A study of Homo sapiens with 13 samples.

Results

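The collagen chain genes are the human genes whose products wind into the triple helices of collagen, and they were described here over 8 days of blood differentiation of human embryonic stem cells and in 4 sorted day 7 fractions. Members were chosen by name and detection: every probe whose symbol was COL, a number, A and a number was taken, and a gene counted as a member where the detection p of a probe fell below 0.01 on 1 or more of the 13 arrays. The array held 70 such probes for 43 genes, and 34 of these genes were detected, out of 18482 genes and unnamed probes detected in the series. They comprised 10 fibrillar, 6 basement membrane and 18 other chains. The 9 genes not detected on any array were COL4A3, COL4A4, COL5A3, COL9A3, COL10A1, COL19A1, COL25A1, COL28A1 and COL29A1. Just inside the threshold, the lowest detection p of COL14A1 was 0.00909 at a level of 5.39 on day 0, and just outside it that of COL9A3 was 0.0117 at 5.35, also on day 0.

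All cells carried the RUNX1C GFP/w allele, in which GFP marks 1 copy of RUNX1C, in the HES3 embryonic stem cell line. Undifferentiated cells on day 0 had been kept on mouse feeder cells in KOSR medium with FGF2, and days 1 to 8 were spin embryoid bodies in APEL medium. BMP4, VEGF and SCF were present throughout, with Activin until the medium change on day 4 and FGF2 and IGF2 after it. Day 7 cells were sorted in a second experiment into CD34lo CD41-, CD34hi CD41-, CD34lo CD41lo and CD34- CD41- fractions, where CD34 marks endothelium and blood progenitors and CD41 the earliest blood cells and megakaryocytes. There was 1 array for every day and fraction, and so no replicate of any value. Between 15134 and 17833 probes were detected per array. The days and the fractions lay on different chips, so chip and experiment cannot be told apart and fractions were compared only with each other. Levels below are normalized log2 intensities, and a level is read across arrays within a probe, since probes of different genes have different brightness.

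Collagen chains are made in the endoplasmic reticulum, where prolines and lysines are hydroxylated and chains fold into a triple helix. Fibrillar types are trimmed outside the cell and pack into the strong fibrils of connective tissue, whereas type IV chains join end to end into the sheet under epithelia and around vessels. Other types coat fibrils, form beaded filaments or anchor membranes to the matrix, and some stay in the plasma membrane of the cell that makes them.

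Most collagen chains that changed over the 9 days were higher late than early. Levels were fitted with a smooth curve over days in limma, and a trend was called at a Benjamini-Hochberg adjusted p below 0.05. Of the 32 members detected on at least 1 day, 22 had a trend, against 38.8% of all 17657 genes tested. These were 5 of 9 fibrillar, 5 of 5 basement membrane and 12 of 18 other chains. A fitted change between days was called with an adjusted p below 0.05 and at least 2-fold. By that rule 14 members rose by day 8 against day 0, where 11.8% of all genes did, and 5 fell, where 10.2% of all genes did. All 5 that fell were other types. By day 4, 10 members were higher than on day 0 and 3 were lower, against 6.28% and 5.92% of all genes. Between day 4 and day 8, 7 members rose and 1 fell, against 4.94% and 2.64% of all genes. Of these, COL1A2, COL3A1, COL6A1 and COL6A2 had also risen by day 4, as had COL9A2, which fell. With 32 members, the counts that fell in each interval lie near the shares of all genes. The median fitted change of day 8 minus day 0 was 1.40 for fibrillar, 0.58 for basement membrane and 0.38 for other chains on the log2 scale, beside -0.041 for all genes. In cultures of mixed cells, more cells of a type and more RNA per cell cannot be told apart. A fitted change that runs through days without detection is no measured size. Where a member was not detected on day 0 or day 8, the difference between the arrays is therefore given beside its called change over the course. The undetected side is set at its detection floor, and the difference is a lower bound.

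**Figure D1:**
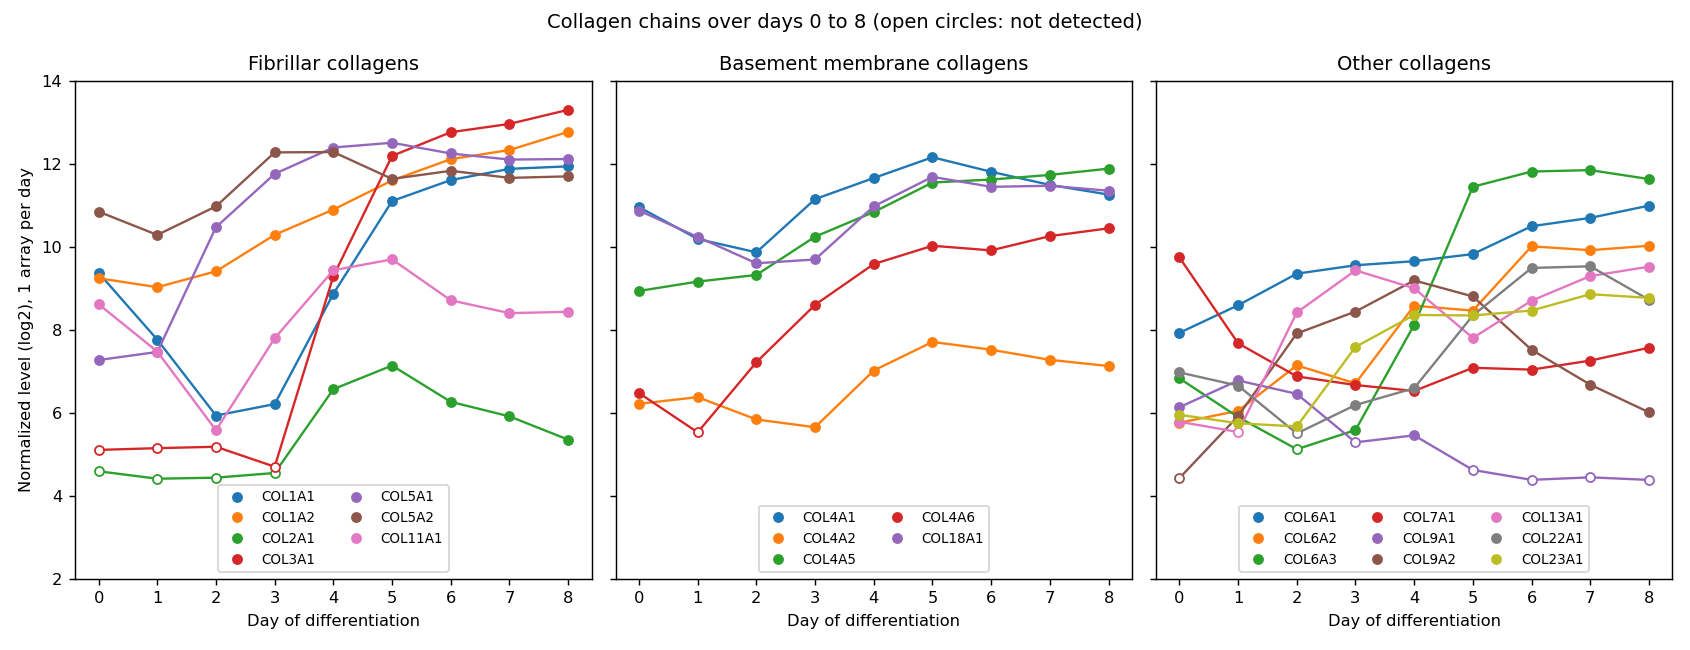
Normalized log2 level of 21 collagen chains (vertical axis) on days 0 to 8 of differentiation (horizontal axis), 1 array per day, with open circles where the probe was not detected. COL3A1 first appears on day 4 and ends at 13.31, COL1A1 and COL11A1 dip to 5.94 and 5.58 on day 2, and COL9A2 peaks at 9.19 on day 4.

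The chains of the main connective tissue fibrils appeared in steps. COL3A1, the single chain of type III collagen of vessel walls and soft tissue, was not detected on days 0 to 3 and measured 9.30, 12.20, 12.77, 12.97 and 13.31 on days 4 to 8. It was at least 244.5-fold higher on day 8 than at the floor of day 0, and at least 14.53-fold higher on day 4 than on day 3. The fitted change was 7.55 ± 0.84 (SE) with an adjusted p of 0.000407. No other member had a larger fitted change over the 9 days. With the submitters' normalized values its 2 shorter intervals missed the threshold, with adjusted p of 0.0705 for day 4 against day 0 and 0.0577 for day 8 against day 4.

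COL1A1 and COL1A2 encode the chains that combine into type I collagen, the main collagen of bone, skin and tendon, yet they followed different courses. COL1A1 measured 9.37, 7.77, 5.94, 6.21, 8.87, 11.11, 11.61, 11.88 and 11.94 on days 0 to 8. COL1A2 measured 9.25, 9.03, 9.41, 10.29, 10.90, 11.60, 12.12, 12.34 and 12.78. COL1A1 thus had a trough on days 2 and 3 that COL1A2 lacked. Both rose over the whole course, COL1A1 by 2.22 ± 0.45 (SE, limma, adjusted p = 0.00731) and COL1A2 by 3.60 ± 0.27 (adjusted p = 7.74e-05). From day 4 to day 8 COL1A1 rose by 3.22 ± 0.39 (limma, adjusted p = 0.00165), a call that ended when the curve had 2 degrees of freedom (adjusted p = 0.0509). The pair of COL1A2 probes moved alike, with day 8 minus day 0 of 3.53 and 3.73.

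Type V collagen starts type I fibrils and limits their width. COL5A1 measured 7.27, 7.47, 10.48, 11.76, 12.40, 12.51, 12.25, 12.11 and 12.12 on days 0 to 8. Its main step, 8.043-fold from day 1 to day 2, came before COL1A1 and COL3A1 increased. COL5A1 was 5.52 ± 0.54 (SE) higher on day 4 than on day 0 on the log2 scale (limma, adjusted p = 0.000546), and day 8 minus day 4 was -0.24 ± 0.54 (adjusted p = 0.847). COL5A2, its partner chain, measured 10.85, 10.29, 10.98, 12.28, 12.29, 11.64, 11.84, 11.67 and 11.70, and its trend did not pass (limma, adjusted p = 0.0865). In a fit from day 1 on, added after seeing the data, COL5A2 was 1.56 higher on day 8 than on day 1 (limma, adjusted p = 0.0124).

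COL2A1 and COL11A1, chains of cartilage fibrils, were highest on day 5 and not at the end in the probes used. A second probe of each, detected on 1 and 6 days, was highest on day 4, at 5.58 and 7.66. COL2A1 was not detected on days 0 to 3 and measured 6.57, 7.14, 6.27, 5.92 and 5.35 on days 4 to 8, with a trend (limma, adjusted p = 0.00355) that did not pass with 2 degrees of freedom (adjusted p = 0.0556). COL11A1 measured 8.62, 7.48, 5.58, 7.80, 9.44, 9.70, 8.71, 8.40 and 8.44, and its adjusted p for a trend was 0.0957. COL11A1 was lowest on day 2, as COL1A1 was. COL27A1, a minor fibrillar chain, was detected on 4 days between 5.75 and 6.05, and its fitted change over the course passed narrowly (1.40 ± 0.45, SE, limma, adjusted p = 0.0491), with day 8 at least 1.297-fold above day 0 on the arrays. Leaving out day 1, 5, 6 or 7 ended that call, with adjusted p between 0.0745 and 0.101, and in the fit from day 1 on COL27A1 did not pass (1.05, limma, adjusted p = 0.131). A curve of 2 degrees of freedom or a robust prior also ended it (limma, adjusted p = 0.0895 and 0.0505). COL11A2 was detected on day 8 at 5.30 in the probe used.

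**Figure D2:**
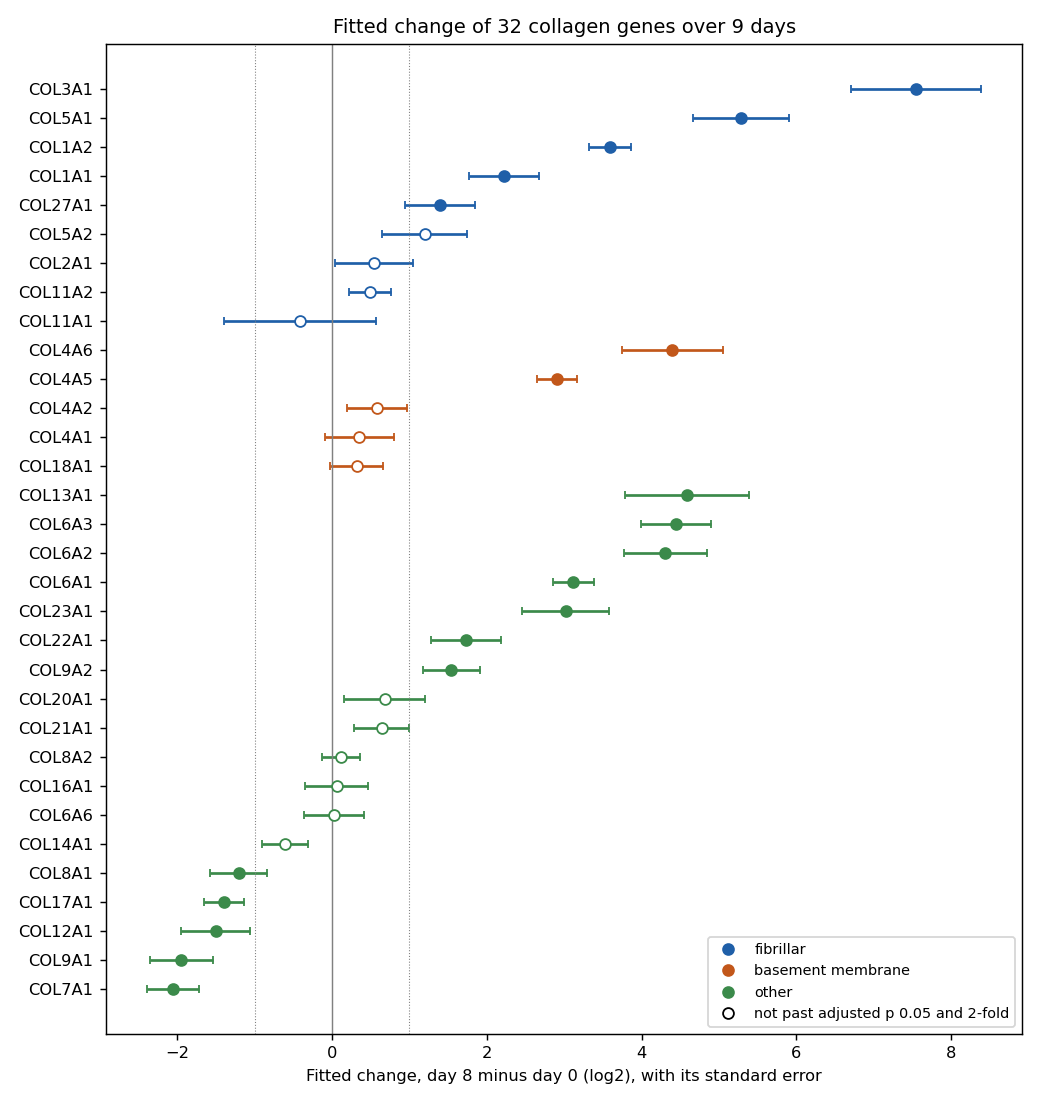
Fitted change of day 8 minus day 0 on the log2 scale (horizontal axis, bars give the standard error of the fit) for the 32 collagen genes detected on at least 1 day (vertical axis), coloured by class. Filled points passed the adjusted p of 0.05 and 2-fold, and the dotted lines mark 2-fold; COL3A1 at 7.55 and COL7A1 at -2.05 are the ends of the range.

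Type IV genes lie in head to head pairs, so that the paired starts face away from a shared stretch of DNA. The stretch between the COL4A1 and COL4A2 starts, and the one before the COL4A5 start that faces COL4A6, are shown because the members of each pair kept together across the sorted fractions while the pairs did not. Sequences and starts are from RefSeq (GRCh38.p14), printed 5′ to 3′ on the + strand. COL4A1 starts at position 110307157 of chromosome 13 on the - strand and COL4A2 at 110307284 on the + strand, with 126 bases between. COL4A6 starts at position 108439458 of chromosome X on the - strand and COL4A5 at 108439838 on the + strand, with 379 bases between, of which the 250 before COL4A5 are printed. For COL4A6 the listed start nearest to COL4A5 was used, and for COL4A1, COL4A2 and COL4A5 the first one listed. Capitals mark the CCAAT box (CCAAT), the TATA box (TATAAA) and the GC box (GGGCGG), searched on both strands.
COL4A1 and COL4A2, chr13:110307158-110307283: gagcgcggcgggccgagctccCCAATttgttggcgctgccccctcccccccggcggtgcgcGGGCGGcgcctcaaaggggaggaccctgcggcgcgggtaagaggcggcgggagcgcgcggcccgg
COL4A5, chrX:108439588-108439837: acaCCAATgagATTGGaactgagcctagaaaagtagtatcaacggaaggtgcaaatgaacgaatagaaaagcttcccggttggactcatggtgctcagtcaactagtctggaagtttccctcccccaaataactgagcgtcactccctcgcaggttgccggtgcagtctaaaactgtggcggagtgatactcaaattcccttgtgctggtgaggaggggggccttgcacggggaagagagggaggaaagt

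The COL4A1 and COL4A2 stretch held 1 CCAAT box and 1 GC box and was 80.2% G and C. The COL4A5 stretch held 2 CCAAT boxes, 1 on each strand and not overlapping, no GC box and 51.2% G and C. No TATA box was in either. Among 35116 listed promoters, 32% held a CCAAT box in the 250 bases before the start, 42.6% a GC box and 10.7% a TATA box. The COL4A1 and COL4A2 stretch, at 126 bases, is shorter than that window, so its boxes cannot be set against these shares. Some genes have several listed starts, and counted by gene, with a match before any of its starts, the shares of 27305 genes were 37%, 46.2% and 13%. Of the 34 members, 24 had a promoter in the table, and counted by gene in the same way 8 of them held a CCAAT box, 19 a GC box and 6 a TATA box. A match is a description of letters in this window.

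All 5 basement membrane chains detected over the days had a trend, but the pairs of type IV genes took different shapes. COL4A1 and COL4A2 make the chains found in nearly all basement membranes. COL4A1 measured 10.96, 10.19, 9.87, 11.15, 11.66, 12.16, 11.81, 11.50 and 11.26 on days 0 to 8. COL4A2 measured 6.22, 6.38, 5.84, 5.65, 7.02, 7.71, 7.52, 7.28 and 7.13. Both were lowest on day 2 or 3 and highest on day 5, and neither differed between day 8 and day 0 past the threshold (fitted 0.35 ± 0.45 and 0.58 ± 0.39, SE, limma, adjusted p = 0.617 and 0.309). Their trends, with adjusted p of 0.0129 and 0.00484 in limma, did not pass with 2 degrees of freedom (0.12 and 0.0824), and that of COL4A1 did not pass without day 5 (0.0513).

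COL4A5 and COL4A6, whose chains occur in a narrower set of basement membranes, were both highest on day 8. COL4A5 measured 8.94, 9.16, 9.33, 10.25, 10.84, 11.55, 11.63, 11.74 and 11.89 on days 0 to 8, with every day above the one before. COL4A6 measured 6.48 on day 0, was not detected on day 1 and measured 7.22, 8.61, 9.59, 10.03, 9.92, 10.26 and 10.45 on days 2 to 8. COL4A5 rose by 2.91 ± 0.26 (SE, limma, adjusted p = 0.000162) and COL4A6 by 4.40 ± 0.65 (adjusted p = 0.00165). On the arrays, day 8 was 7.723-fold above day 0 for COL4A5 and 15.68-fold for COL4A6. The 2 other genes of the family, COL4A3 and COL4A4, which supply chains of the kidney filter, were not detected on any of the 13 arrays.

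COL18A1, the source of the anti-angiogenic fragment endostatin, measured 10.88, 10.24, 9.61, 9.70, 10.98, 11.69, 11.45, 11.47 and 11.36 on days 0 to 8. As with COL4A1, it was lowest on day 2 and highest on day 5. Its trend passed (limma, adjusted p = 0.00163), though not with 2 degrees of freedom (0.118), and its fitted change of day 8 minus day 0 was 0.32 ± 0.34 (SE, adjusted p = 0.54). COL15A1, the other gene of the endostatin family, was detected on no day.

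Among other types, all 3 main chains of the type VI beaded filaments rose. COL6A1 measured 7.93, 8.59, 9.36, 9.56, 9.66, 9.83, 10.50, 10.70 and 11.00 on days 0 to 8. COL6A2 measured 5.76, 6.05, 7.14, 6.71, 8.58, 8.47, 10.01, 9.92 and 10.03. COL6A3, in the probe used, measured 6.83 and 5.90 on days 0 and 1, was not detected on day 2, and measured 5.59, 8.12, 11.45, 11.82, 11.85 and 11.64 on days 3 to 8. COL6A1 increased day by day, whereas COL6A3 in that probe had a trough on days 1 to 3 and then a 10.05-fold step from day 4 to day 5. A second COL6A3 probe was detected on day 2, and measured 5.83, 6.15 and 5.53 on days 0 to 2. Fitted changes of day 8 minus day 0 were 3.12 ± 0.26, 4.31 ± 0.53 and 4.44 ± 0.45 (SE, limma, adjusted p = 0.000123, 0.000705 and 0.000299). The rise of COL6A2 from day 4 to day 8 (1.94 ± 0.46, SE, limma, adjusted p = 0.0309) did not pass without day 5 or without day 7 (0.0837 and 0.0761), and that of COL6A3 (3.15 ± 0.39, adjusted p = 0.00185) did not pass with 2 degrees of freedom (0.0569). COL6A6 was detected on days 3 to 6, at 5.54 to 5.81. Its trend passed (limma, adjusted p = 0.0298), but not without day 1, 4, 5 or 6 (0.0624 to 0.0916).

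COL9A2, a chain of the type IX collagen that coats cartilage fibrils, was transient. It was not detected on day 0 and measured 5.92, 7.91, 8.44, 9.19, 8.81, 7.52, 6.68 and 6.01 on days 1 to 8. It rose by 4.62 ± 0.32 from day 0 to day 4 (SE, limma, adjusted p = 0.00012), at least 14.12-fold on the arrays. It then fell by 3.08 ± 0.32 to day 8 (SE, limma, adjusted p = 0.000697), the only member that fell in the second interval. On day 8 it still passed as higher than on day 0 (1.54 ± 0.37, SE, limma, adjusted p = 0.0144), by at least 1.56-fold on the arrays, but in the fit from day 1 on it did not differ past the threshold between day 8 and day 1 (-0.08, limma, adjusted p = 0.897). Its partner COL9A1 ran the other way, at 6.14, 6.78 and 6.46 on days 0 to 2, 5.46 on day 4 and not detected on day 3 or after day 4. COL9A1 fell over the course by 1.95 ± 0.41 (SE, limma, adjusted p = 0.00818), with day 8 at least 1.803-fold below day 0 on the arrays.

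The membrane-bound chains also diverged. COL13A1, known from the junction of nerve and muscle, measured 5.79 on day 0 in the probe used on the days. That probe was not detected on day 1 and measured 8.42, 9.43, 9.00, 7.81, 8.70, 9.30 and 9.52 on days 2 to 8. A second COL13A1 probe was detected on all 9 days, at 5.97 on day 1. COL23A1 measured 5.95, 5.75, 5.67, 7.59, 8.36, 8.35, 8.47, 8.86 and 8.77 on days 0 to 8. Over the course COL13A1 rose by 4.59 ± 0.80 and COL23A1 by 3.02 ± 0.56 (SE, limma, adjusted p = 0.00361 and 0.0048). COL17A1, a chain of the hemidesmosomes that hold skin epithelium to its base, measured 6.48, 6.21 and 5.89 on days 0 to 2, and of the later days only day 5 was detected, at 5.38. It fell by 1.39 ± 0.26 over the course (SE, limma, adjusted p = 0.00455), at least 2.291-fold on the arrays, and the fitted size was under 2-fold without background correction.

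COL22A1, known from the ends of muscle fibres at tendons, measured 6.97 and 6.66 on days 0 and 1, was not detected on day 2 and measured 6.19, 6.60, 8.35, 9.49, 9.53 and 8.73 on days 3 to 8. Its rise of 1.73 ± 0.45 (SE, limma, adjusted p = 0.022) did not pass without day 7 (0.0512) or with the submitters' values (0.051).

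The last group was brightest in undifferentiated cells. COL7A1, the chain of the anchoring fibrils below skin epithelium, measured 9.75, 7.68, 6.88, 6.67, 6.53, 7.09, 7.04, 7.26 and 7.57 on days 0 to 8. It fell by 2.05 ± 0.34 from day 0 to day 8 (SE, limma, adjusted p = 0.00266), or 4.526-fold on the arrays. COL12A1 and COL14A1, which bind to the surface of type I fibrils, and COL8A1, of the network collagen of vessels and cornea, were detected on day 0 alone, at 6.35, 5.39 and 5.86. COL12A1 and COL8A1 passed as lower on day 8 (limma, adjusted p = 0.0362 and 0.039), by at least 2.098-fold and 1.489-fold on the arrays. The adjusted p of COL12A1 was 0.0586 without day 5 and 0.0746 without day 7, and that of COL8A1 was between 0.0541 and 0.0721 without day 2, 5, 6 or 7. With the submitters' values they were 0.0663 and 0.0579. That of COL8A1 was 0.085 without background correction and 0.132 with 2 degrees of freedom.

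Several of these falls rest on the day 0 array. In the fit from day 1 on, COL7A1, COL8A1 and COL12A1 did not pass as lower on day 8 than on day 1 (changes of -0.14, 0.07 and -0.37, limma, adjusted p = 0.719, 0.853 and 0.491), and COL9A1 and COL17A1 still did (-2.44 and -1.10, adjusted p = 0.0016 and 0.0173). COL1A1 was 4.06 higher on day 8 in that fit (limma, adjusted p = 0.000735). The adjusted p of the COL8A1 trend was 0.973 without day 0. Beside these, 4 of 9 mesenchyme markers were detected on day 0, PDGFRB, TWIST1, THY1 and TAGLN, and DCN, LUM, POSTN, PDGFRA and PRRX1 were not. TAGLN, a smooth muscle and fibroblast actin-binding protein, measured 9.75 on day 8 and 13.32 on day 0. The summed linear level of the list was 12042 on day 0, 1447 on day 3 and 20911 on day 8, when all 9 were detected. These sums rest on different genes, since TAGLN was the brightest of the list on day 0, and LUM and DCN were on day 8, at 13.32 and 12.64. Of 5 pluripotency markers 2 were detected on day 8, against all 5 on day 0. The 6 endoderm markers summed to 49984 on day 8, all 6 detected, against 1594 on day 0, when AFP alone was detected. The 6 endothelial markers summed to 2569 on day 8, with 5 detected. On day 0 they summed to 746, with TEK and ESAM detected, at 9.44 and 5.68. The part of these cell types in the collagen levels, and that of the mouse feeder cells, was not tested.

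The remaining members had no trend past the threshold, and neither did COL5A2, COL11A1, COL11A2, COL12A1, COL14A1 and COL27A1 above. COL12A1 and COL27A1 were called on the change of day 8 minus day 0 alone. Their adjusted p for a trend was 0.0551 and 0.0973 in limma. COL16A1 and COL8A2 were detected on every day, at 6.61 to 7.56 and 6.24 to 6.73, with adjusted p for a trend of 0.929 and 0.57 in limma. COL20A1 was detected on 3 days, at 5.61 to 6.35, and COL21A1 on days 4 and 8, at 5.37 and 5.59, and neither passed. On the arrays COL20A1 was at least 2.006-fold lower on day 5 than on day 4.

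In the sorted day 7 cells the collagen chains were mostly brightest in the CD34- CD41- fraction and dimmest in the CD34lo CD41lo fraction. With 1 array per fraction no test could be made, and differences were counted at 2-fold in members detected on the brighter array. Of 27 members detected in a fraction, 1 was brightest in CD34lo CD41-, 5 in CD34hi CD41- and 2 in CD34lo CD41lo cells, against 19 in CD34- CD41- cells. Of the 17 detected in all 4, 3 were dimmest in CD34hi CD41- and 13 in CD34lo CD41lo, against 1 in CD34- CD41- cells. Brightest and dimmest fractions were not counted over all genes, so no share stands beside these counts. In CD34lo CD41- cells 0 members were higher and 2 lower than in CD34- CD41- cells, where 2.64% and 4.23% of 15891 genes were. In CD34hi CD41- cells 1 was higher and 14 lower, against 7% and 8.9% of all genes. In CD34lo CD41lo cells 1 was higher and 20 lower, against 8.26% and 11.1%. Set against CD34hi CD41- cells, CD34lo CD41lo cells had 2 higher and 10 lower, against 5.17% and 6.95%. These comparisons share arrays.

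**Figure D3:**
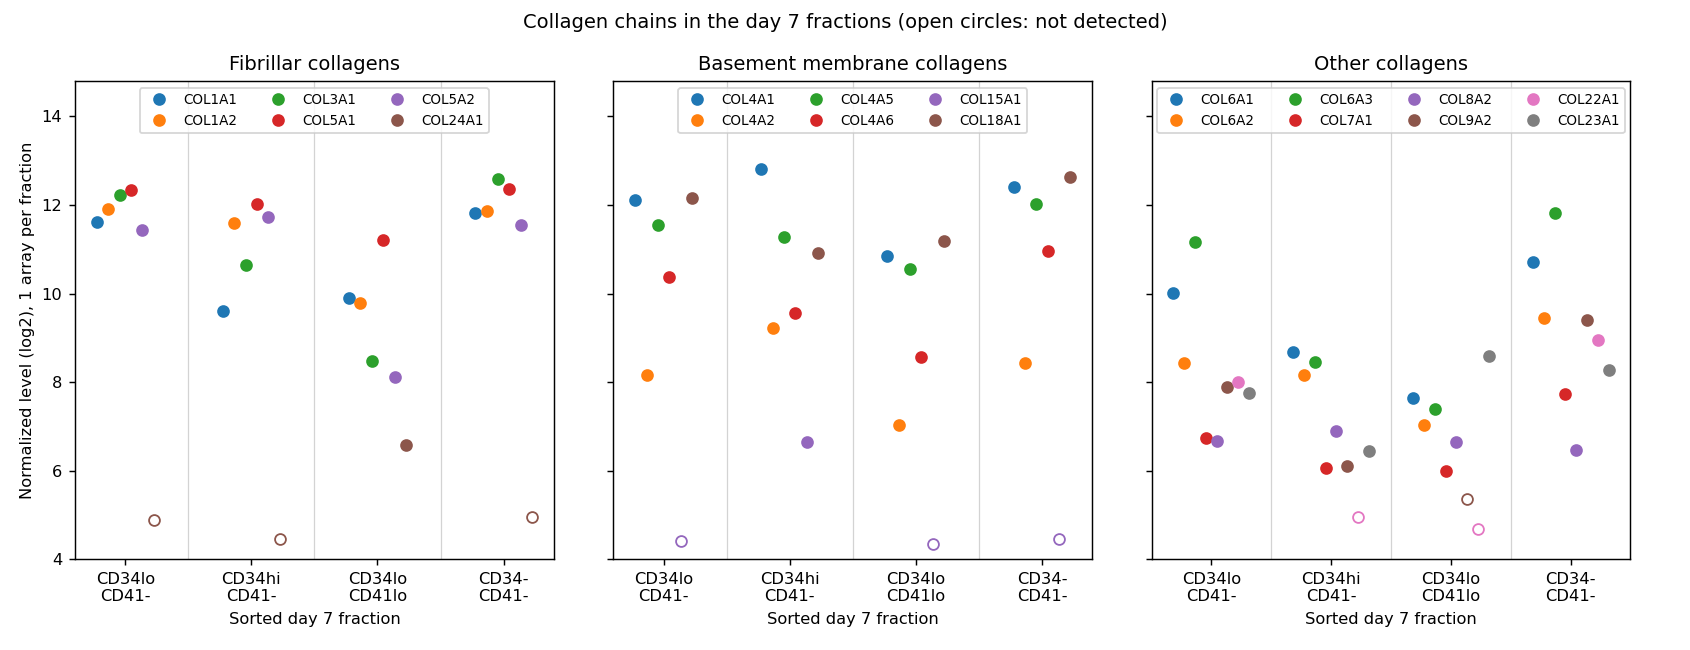
Normalized log2 level of 20 collagen chains (vertical axis) in the 4 sorted day 7 fractions (horizontal axis), 1 array each, with open circles where the probe was not detected. COL4A1, COL4A2 and COL15A1 are highest in CD34hi CD41- cells, while COL1A1, COL3A1 and COL6A3 are highest in CD34- CD41- cells.

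The fibrillar chains differed in the fraction in which they were low. COL1A1 measured 11.62 in CD34lo CD41-, 9.60 in CD34hi CD41- and 9.90 in CD34lo CD41lo cells, against 11.82 in CD34- CD41- cells. COL1A2 measured 11.91, 11.60 and 9.78 in the same order, against 11.88 in CD34- CD41- cells. In CD34hi CD41- cells COL1A1 was thus 4.641-fold lower than in CD34- CD41- cells, whereas COL1A2 was 0.28 lower on the log2 scale and lay 4.264-fold lower in CD34lo CD41lo cells.

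COL3A1 measured 12.22 in CD34lo CD41-, 10.64 in CD34hi CD41- and 8.47 in CD34lo CD41lo cells, against 12.59 in CD34- CD41- cells, a difference of 17.43-fold for CD34lo CD41lo. COL5A2 measured 11.43, 11.73 and 8.11 in that order, against 11.54. It was 12.34-fold lower in CD34lo CD41lo than in CD34hi CD41- cells, while its partner COL5A1 measured 12.34, 12.02 and 11.22, against 12.37 in CD34- CD41- cells. COL3A1 and COL5A2, neighbours on chromosome 2, therefore differed in the CD34hi CD41- cells, where COL3A1 was 3.879-fold below CD34- CD41- cells and COL5A2 was slightly above them.

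The cartilage chains were brightest in CD34- CD41- cells. COL2A1 measured 6.45 in CD34lo CD41- and 7.37 in CD34- CD41- cells and was not detected in CD34hi CD41- or CD34lo CD41lo cells. COL11A1 measured 7.62 in CD34lo CD41- and 7.13 in CD34hi CD41- cells, against 7.94 in CD34- CD41- cells, and was not detected in CD34lo CD41lo cells. COL24A1, a minor fibrillar chain detected on no day, was seen in CD34lo CD41lo cells alone, at 6.58, at least 2.448-fold above the floor in CD34- CD41- cells.

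Basement membrane chains divided by gene pair. COL4A1 measured 12.11 in CD34lo CD41-, 12.82 in CD34hi CD41- and 10.85 in CD34lo CD41lo cells, against 12.40 in CD34- CD41- cells. COL4A2 measured 8.17, 9.22 and 7.04 in that order, against 8.44. Both were highest in CD34hi CD41- cells, though by less than 2-fold over CD34- CD41- cells (0.42 and 0.78 on the log2 scale), and both were lowest in CD34lo CD41lo cells, 3.915-fold and 4.525-fold below CD34hi CD41- cells.

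COL4A5 and COL4A6 had another order. COL4A5 measured 11.56 in CD34lo CD41-, 11.29 in CD34hi CD41- and 10.56 in CD34lo CD41lo cells, against 12.02 in CD34- CD41- cells. COL4A6 measured 10.37, 9.56 and 8.56 in that order, against 10.96, so that both were lowest in CD34lo CD41lo cells, next in CD34hi CD41-, then in CD34lo CD41- and highest in CD34- CD41- cells. COL4A6 was 2.639-fold lower in CD34hi CD41- and 5.272-fold lower in CD34lo CD41lo than in CD34- CD41- cells.

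COL15A1, found in the basement membranes of vessels and muscle, was detected in CD34hi CD41- cells alone, at 6.65, at least 2.568-fold above the floor in CD34- CD41- cells. COL18A1 was lower there, at 12.16 in CD34lo CD41-, 10.91 in CD34hi CD41- and 11.18 in CD34lo CD41lo cells, against 12.64 in CD34- CD41- cells. A second COL18A1 probe was detected in all 4 fractions and on none of the 9 days, and it differed less (-0.45 in CD34hi CD41- and -0.15 in CD34lo CD41lo against CD34- CD41- cells, log2).

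**Figure D4:**
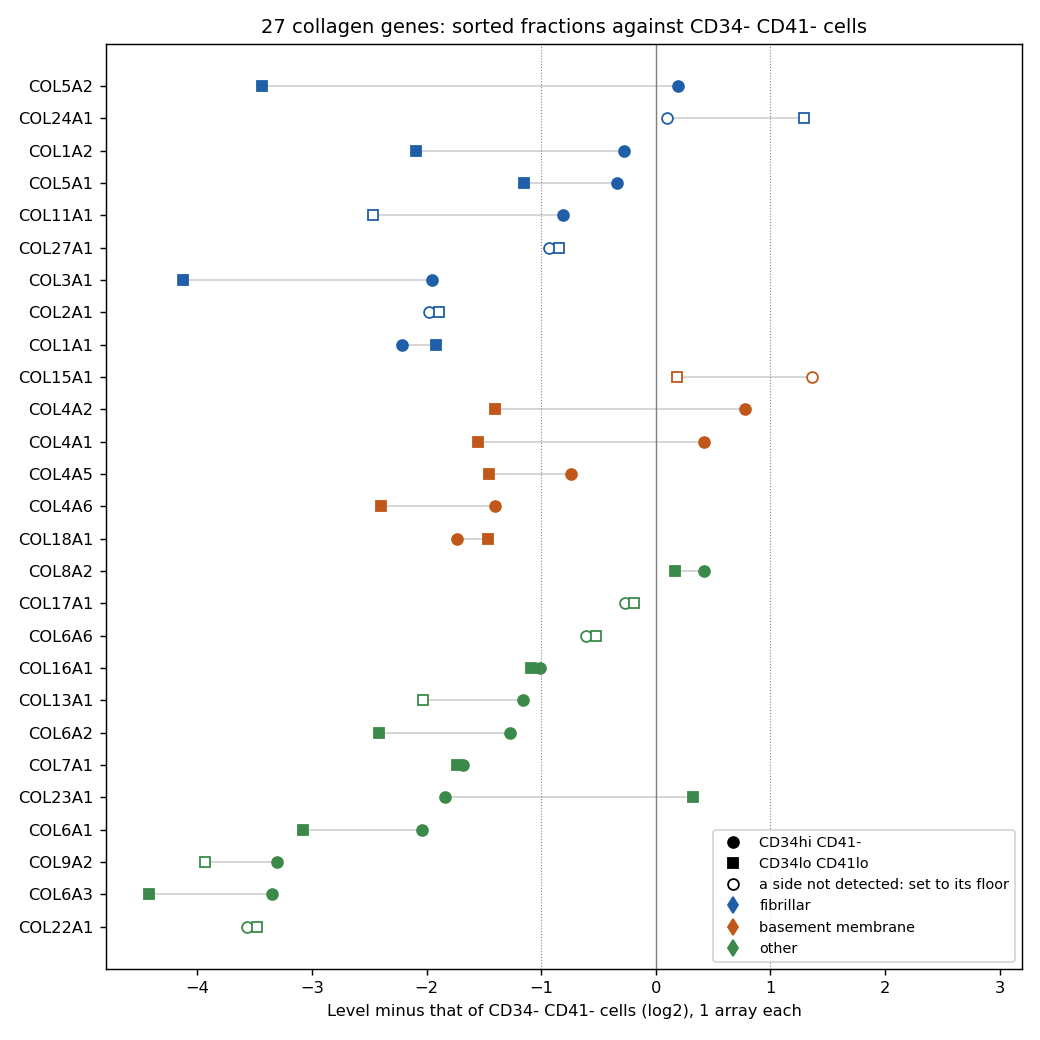
Log2 level minus that of CD34- CD41- cells (horizontal axis) for the 27 collagen genes detected in a fraction (vertical axis), with circles for CD34hi CD41- and squares for CD34lo CD41lo cells, coloured by class. Open symbols have at least 1 side not detected and set to its floor; dotted lines mark 2-fold, and COL6A3 in CD34lo CD41lo cells lies lowest at -4.42.

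The type VI chains kept one order across the fractions. COL6A3 measured 11.16 in CD34lo CD41-, 8.46 in CD34hi CD41- and 7.39 in CD34lo CD41lo cells, against 11.81 in CD34- CD41- cells. COL6A1 measured 10.00, 8.68 and 7.64 in that order, against 10.72. COL6A2 measured 8.43, 8.17 and 7.02, against 9.44. COL6A3 had the widest span, 10.18-fold lower in CD34hi CD41- and 21.48-fold lower in CD34lo CD41lo than in CD34- CD41- cells.

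COL9A2 measured 7.90 in CD34lo CD41- and 6.11 in CD34hi CD41- cells, against 9.41 in CD34- CD41- cells, and was not detected in CD34lo CD41lo cells. COL22A1 measured 8.0 in CD34lo CD41- cells, against 8.95 in CD34- CD41- cells, and was not detected in the other two fractions, at least 11.82-fold lower in CD34hi CD41- cells. COL7A1 measured 6.73, 6.05 and 6.0 in CD34lo CD41-, CD34hi CD41- and CD34lo CD41lo cells, against 7.73 in CD34- CD41- cells.

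COL23A1 ran against this order. It measured 7.75 in CD34lo CD41-, 6.44 in CD34hi CD41- and 8.60 in CD34lo CD41lo cells, against 8.27 in CD34- CD41- cells, and was 4.476-fold higher in CD34lo CD41lo than in CD34hi CD41- cells. COL8A2 spanned 6.47 to 6.89 over the 4 fractions. COL16A1 measured 6.55, 5.98 and 5.91 in CD34lo CD41-, CD34hi CD41- and CD34lo CD41lo cells, against 6.99 in CD34- CD41- cells. COL27A1 and COL6A6 were detected in CD34lo CD41- cells (5.37 and 5.36) and in CD34- CD41- cells (6.32 and 6.0), and COL17A1 in CD34- CD41- cells alone (5.66). COL13A1 was read from different probes on the days and in the fractions, and both probes were lower in CD34hi CD41- than in CD34- CD41- cells (-1.16 and -1.51, log2).

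Markers of other cell types also differed between the fractions. The summed linear level of 9 mesenchyme markers without collagens was 8814 in CD34lo CD41- (8 detected, POSTN not), 3888 in CD34hi CD41- (7 detected, DCN and POSTN not) and 949 in CD34lo CD41lo cells (5 detected; DCN, POSTN, PRRX1 and TWIST1 not), against 11454 in CD34- CD41- cells (9 detected). One of its genes, THY1, ran against the sum, at 9.26 in CD34lo CD41-, 11.06 in CD34hi CD41- and 7.38 in CD34lo CD41lo cells, against 7.64 in CD34- CD41- cells, 10.68-fold higher in CD34hi CD41- than in CD34- CD41- cells. THY1 had the highest level of the list in CD34hi CD41- cells, so the sum there rests largely on it. TAGLN and PDGFRB were also higher in CD34lo CD41- cells, at 9.94 and 8.92, than in CD34- CD41- cells, at 9.09 and 8.87. For 6 endoderm markers, all detected but SERPINA1 in CD34hi CD41- and CD34lo CD41lo cells, the summed linear level was 18162, 1118 and 1278 in that order, against 26526. For 6 endothelial markers, of which 5 were detected in each fraction and ROBO4 in none, it was 5287, 15097 and 3854, against 1099. For 5 red cell markers, all detected in each fraction, it was 16464, 1442 and 44403, against 8126. For the blood list, with 5, 4 and 5 of 6 detected against 3, it was 8275, 9533 and 12573, against 1101, and PTPRC was detected in none. The mesenchyme and endoderm sums were thus highest in CD34- CD41- cells, as most collagens were, the endothelial sum in CD34hi CD41- cells and the red cell and blood sums in CD34lo CD41lo cells. ITGA2B, the gene of CD41, measured 5.96 in CD34lo CD41- and 9.19 in CD34lo CD41lo cells and was not detected in CD34hi CD41- or CD34- CD41- cells. The part of these cell types in the collagen differences was not tested.

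Genes that act on collagen chains were followed as 4 lists. Their counts stand beside 11.8% of all genes that rose and 10.2% that fell by day 8, a median change of -0.041 over all genes, and 8.9% and 11.1% of all genes lower in CD34hi CD41- and in CD34lo CD41lo than in CD34- CD41- cells. Of 19 enzymes and chaperones that modify and fold the chains, 17 were tested over days, 6 rose by day 8 and 0 fell, with a median change of 0.91 (log2). P4HA1, the prolyl hydroxylase subunit that stabilizes the helix, rose by 3.18 ± 0.38 (SE, limma, adjusted p = 0.000563), and measured 11.76 on day 8 against 8.74 on day 0. SERPINH1, the collagen chaperone HSP47, measured 11.96 on day 8 and 10.97 on day 0, and its change did not pass (0.91 ± 0.37, SE, limma, adjusted p = 0.102). In the fractions 3 of 16 were at least 2-fold lower in CD34hi CD41- and 5 in CD34lo CD41lo than in CD34- CD41- cells, and 0 were higher in either.

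Of 14 genes for cleavage and crosslinking, 9 were tested, 2 rose and 1 fell by day 8, with a median of 0.35. With 9 genes these counts lie near the shares of all genes. LOX, which crosslinks fibrils, measured 10.25 on day 8 against 6.64 on day 0, a rise of 3.13 ± 0.90 (SE, limma, adjusted p = 0.0312). BMP1, which cuts the ends off fibrillar chains, rose by 2.33 ± 0.31 (SE, limma, adjusted p = 0.00112). BMP1 was not detected on day 0 and measured 7.19 on day 8, so this fitted size is not a measured one. LOX was detected in CD34lo CD41- and CD34- CD41- cells, at 6.96 and 8.0, and not in the other two fractions. LOXL3, of the same enzyme family, went the other way, at 6.55 in CD34lo CD41-, 6.55 in CD34hi CD41- and 6.39 in CD34lo CD41lo cells, at least 2.385-fold, 2.385-fold and 2.146-fold above the floor in CD34- CD41- cells, where it was not detected. Of 9 genes in the fractions, 3 were lower and 1 was higher in CD34hi CD41- than in CD34- CD41- cells, and likewise 3 and 1 in CD34lo CD41lo cells.

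Of 18 partners of type IV collagen in basement membranes, 15 were tested and 8 rose by day 8, with a median of 1.06. NID2, a nidogen that ties laminin to type IV collagen, rose by 3.69 ± 0.49, LAMB1 by 2.85 ± 0.39 and LAMA1, both laminin chains, by 2.79 ± 0.56 (SE, limma, adjusted p = 0.000974, 0.0012 and 0.00691). NID2 was not detected on day 0 and measured 9.18 on day 8, so its fitted size is not a measured one. Of 13 in the fractions, 3 were at least 2-fold lower in CD34hi CD41- and 6 in CD34lo CD41lo than in CD34- CD41- cells. NID1 was the 1 partner higher in CD34hi CD41- than in CD34- CD41- cells, at 8.35 against 6.27, a 4.239-fold difference in the direction of COL4A1, COL4A2 and COL15A1.

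Of 11 collagen receptors, 9 were tested, 3 rose and 1 fell by day 8, with a median of 0.28. The 1 of 9 that fell is near the share of all genes. The receptor kinase DDR2 rose by 2.30 ± 0.35 and the integrin chain ITGA10 by 1.57 ± 0.38, while the integrin chain ITGA2 fell by 1.34 ± 0.26 (SE, limma, adjusted p = 0.00178, 0.0156 and 0.00544). DDR2 and ITGA10 were not detected on day 0 and measured 7.52 and 6.43 on day 8. ITGA2 measured 6.49 on day 0 and was not detected on day 8, so none of these fitted sizes is a measured one. ITGA10 measured 5.94 in CD34lo CD41- and 9.42 in CD34hi CD41- cells and was not detected in CD34lo CD41lo or CD34- CD41- cells, at least 17.46-fold higher in CD34hi CD41- than in CD34- CD41- cells. Among the 3 CD41- fractions DDR2 had the reverse order, at 6.43 in CD34lo CD41- and 5.43 in CD34hi CD41- cells, against 7.10 in CD34- CD41- cells, and like ITGA10 it was not detected in CD34lo CD41lo cells.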

How the data were processed

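Of 47231 probes on 13 Illumina arrays, 1 was dropped because it had no values on the time course. The intensities deposited by the authors are summary values per probe, not normalized between arrays and with a background subtracted, since they go below 0. Each has a detection value beside it, a fraction between 0 and 1 per the file headers. The submitters' normalized log2 values, deposited by the authors, were used as an alternative, made in a way that the sources used here do not state. GenomeStudio 2010.2 and lumi are named per the submitters' processing notes. The signal columns, 2 of them with abbreviated names, were assigned to samples by name, and against the deposited log2 columns the rank correlation was 0.999995 or more for the same sample and 0.904 or less otherwise.

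Intensities were corrected and quantile normalized jointly with neqc of limma 3.58.1 (offset 16) in R 4.3.3, and detection p was 1 minus the detection value. Per gene, the brightest probe detected on at least 1 array of an experiment was used, and unnamed probes stayed as their own features. Detection floors, the lowest detected level of an array, ran from 5.29 to 5.73. A natural spline of 3 degrees of freedom over 9 days gave a moderated F test and contrasts, adjusted over 17657 genes. With 5 residual degrees of freedom, the median residual SD was 0.248, and this error is the departure of single arrays from a smooth curve, not a spread between cultures. Unadjusted, the F test gave p below 0.05 for 8571 genes. Fractions were compared without a test. The fit was tested on simulated data. Collagen members and the lists of enzymes, partners, receptors and markers were chosen with earlier results of these data known, and all members are named or counted. The number of arrays limits the precision. A result among the basement membrane partners is not reported here.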

Additional observations from a re-analysis of the deposited data

How the results depend on the processing

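No result reversed under the alternatives tried: the submitters' normalized values, no background correction, each experiment normalized alone, the mean of probes, detection on at least 3 arrays, a spline of 2 degrees of freedom, a robust prior, leaving out each day, no detection floor and 4-fold. The 5 members lower on day 8 than on day 0 became 3 with the submitters' values, 3 without background correction and 3 with detection on at least 3 arrays, and 2 in the fit from day 1, added after seeing the data. Leaving out a day gave 3 to 5 there, and 1 to 2 for the 1 member lower on day 8 than on day 4, where leaving out day 3 gave 2. With day 0 or day 8 left out, the interval that ends on that day had no value. Over days 14 members rose by day 8, and 12 to 14 did with a day left out, and 22 had a trend, with 19 to 24.

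In the fractions, counts moved with the setting. Members lower in CD34lo CD41- than in CD34- CD41- cells were 7 with the submitters' values, 1 without background correction, 1 with fractions normalized alone, 1 with the mean of probes and 0 at 4-fold. For CD34hi CD41- against CD34- CD41- cells, 0 were higher without background correction and 0 at 4-fold, and 5 were lower at 4-fold. For CD34lo CD41lo against CD34- CD41- cells, 0 were higher without background correction and 0 at 4-fold, and 11 were lower at 4-fold. For CD34lo CD41lo against CD34hi CD41- cells, 1 was higher without background correction and 1 at 4-fold, and 6 and 3 were lower. The cause was not tested, apart from the stricter fold. Of 40 called changes over days, 6 missed the threshold with the submitters' values, 6 with 2 degrees of freedom and 3 without background correction. COL15A1 and COL24A1 were under 2-fold without background correction (0.93 and 0.87 against CD34- CD41- cells).

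No paired analysis was possible because no group had a second array to pair. Low levels near the floor, as in COL8A1, COL14A1 and COL11A2, have little signal over background. The changes of COL8A1 and COL14A1 from day 0 are therefore bounds. COL11A2, at 5.30 on day 8 in the probe used, lay below the day 0 floor of 5.37, so it has no bound.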
